A study of Homo sapiens with 4 samples.

Results

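WNT pathway transcripts were examined in Baz2B-KO, a CRISPR/Cas9-edited clone of the near-haploid human cell line Hap1, and in the parental Hap1 control. Total RNA of each line was hybridised to 2 GeneChip Human Gene 2.0 ST arrays, which measure each gene with 1 or more probe sets. The edited clone carries a short deletion in a coding exon of BAZ2B, a regulatory subunit of ISWI chromatin remodelling complexes. Both lines were grown in the same medium with fetal calf serum, were trypsinised before RNA extraction and received no drug or ligand. The list holds 60 genes of the pathway, chosen by name as ligands, receptors, inhibitors, signalling parts and targets, together with CDK14. Of these, 37 have a probe set that the tables used here name, and 27 were tested.

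WNT proteins are secreted, lipid-modified ligands that bind Frizzled receptors and the LRP5 and LRP6 co-receptors at the cell surface. Without a ligand, a complex of AXIN, APC and GSK3B marks β-catenin for degradation. With a ligand, Dishevelled proteins and phosphorylated LRP6 hold this complex at the membrane, β-catenin accumulates, and it drives transcription with the TCF/LEF factors, several of whose targets encode feedback inhibitors. CDK14, with its partner cyclin Y at the plasma membrane, phosphorylates LRP6 and primes it for signalling, and so links the pathway to the cell cycle.

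CDK14 fell and the receptor gene FZD10 rose in Baz2B-KO. No other tested gene of the list passed the test. The test was limma's moderated linear model over 11235 named probe sets above an intensity of 3.5 in at least 2 arrays, with a Benjamini-Hochberg adjusted p under 0.05. Of the 27 WNT genes, 1 was called higher, 1 was called lower and 25 were not called. Over all tested probe sets, 0.276% were called higher and 0.392% lower. The list, CDK14 included, was chosen with earlier results of these data known. Its counts beside these shares are therefore no measure of an excess. The median log2 fold change of the 27 genes was 0.053, against 0.017 over all tested probe sets. Without Hap1 control replicate 1 the median of the list was -0.021 and without Hap1 control replicate 2 it was 0.091. The median absolute log2 fold change was 0.111 for the list and 0.104 over all tested probe sets. Both Baz2B-KO arrays lay above both Hap1 control arrays for 7 of the 27 genes and below them for 2, and the groups overlapped for 18. Such separation was common, with 37.8% of all tested probe sets on one side, 21.9% above and 15.9% below. Whether the paired arrays of a line stem from separate cultures is not stated, so the p-values reflect array-to-array spread that may be technical. Effects of Baz2B loss and other differences between 1 clone and its parent cannot be told apart.

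**Figure D1:**
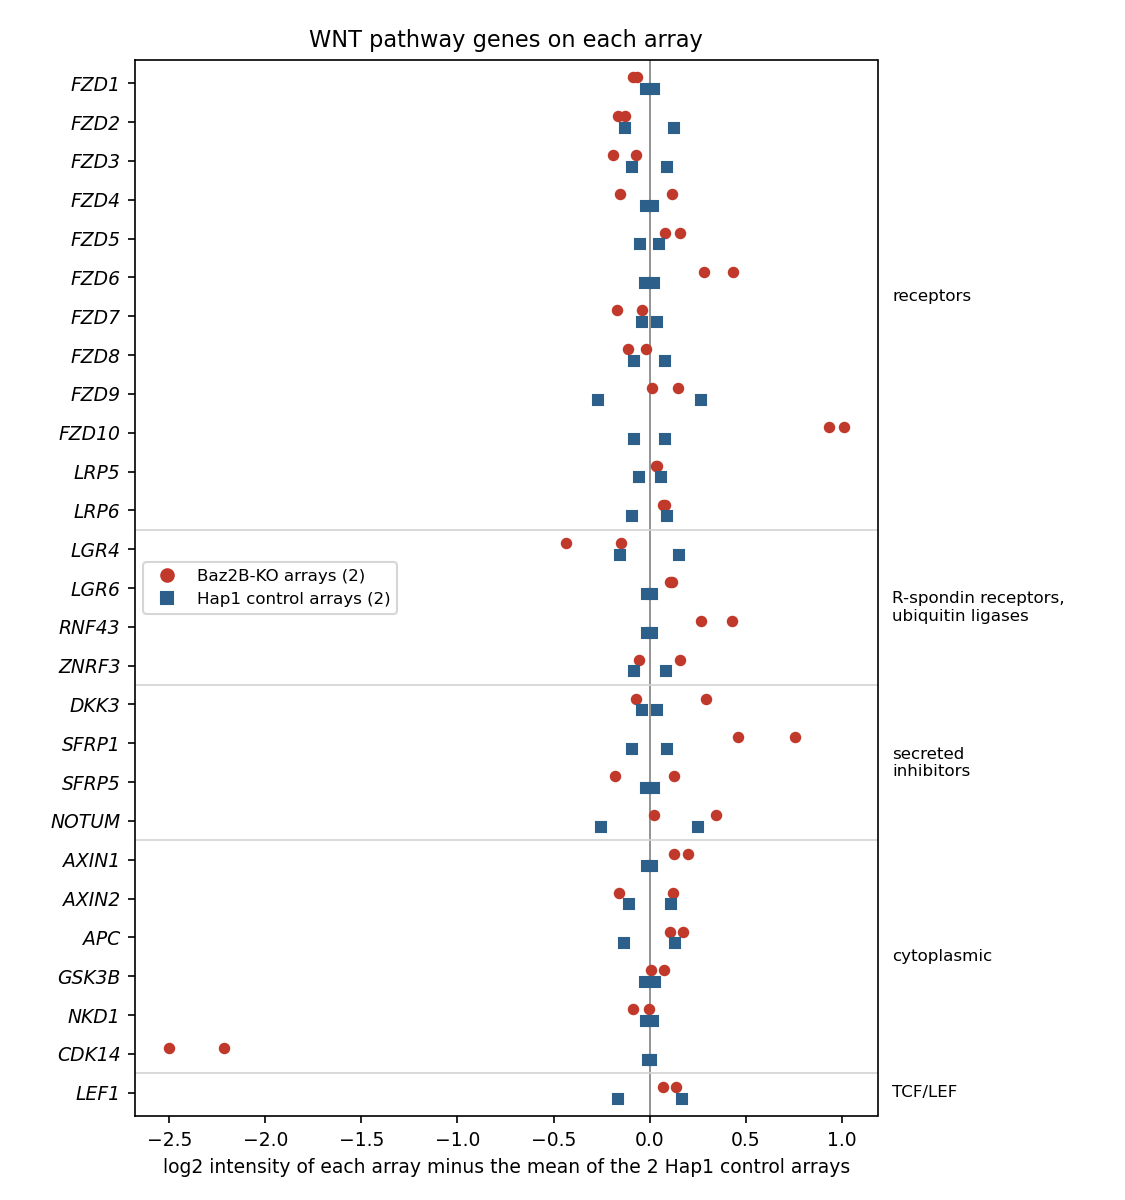
Log2 intensity of each array minus the mean of the 2 Hap1 control arrays, for the 27 tested WNT pathway genes in their classes. Red circles are the 2 Baz2B-KO arrays and blue squares the 2 Hap1 control arrays. The CDK14 circles lie more than 2 units to the left of the controls and the FZD10 circles about 1 unit to the right.

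Arrays of a line resembled each other (r = 0.992 between the Baz2B-KO arrays and 0.989 between the Hap1 control arrays, over the tested probe sets), and r was 0.983 to 0.987 across the lines. Over the 27 WNT genes, the median absolute difference was 0.119 between the Baz2B-KO arrays and 0.114 between the Hap1 control arrays, against 0.128 to 0.175 across the lines. Over all tested probe sets it was 0.115 between the Baz2B-KO arrays and 0.148 between the Hap1 control arrays. Across the lines it was 0.119 to 0.161 there, so the Hap1 control arrays differed by as much as arrays of different lines. No probe set of BAZ2B is named in the tables used here, so the edited gene was not analysed. Hap1 goes back to a chronic myelogenous leukaemia. Of 16 blood lineage markers, 4 were tested and none was called, and the probe sets of CD34, MPO, RUNX1, LYZ and CD14 were not above the intensity limit in at least 2 arrays.

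CDK14 had log2 intensities of 3.89 and 3.60 in Baz2B-KO, against 6.11 and 6.10 in the Hap1 control. Both Baz2B-KO arrays lay far below both controls, and the 2 controls were nearly identical. The Baz2B-KO values lie just over the intensity limit, where RMA can compress differences. CDK14 was 5.13-fold lower (log2 fold change -2.36, standard error 0.130, 95% interval -2.66 to -2.06, adjusted p = 0.00086 from limma). This fold change ranked 4 in size and 2 by p among the 11235 probe sets. Leaving out Hap1 control replicate 1 gave an adjusted p of 0.0542 from limma and leaving out Hap1 control replicate 2 one of 0.0564. The log2 fold change without 1 array stayed between -2.50 and -2.22.

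CDK14 has several relatives among the cyclin-dependent kinases, and cyclin Y proteins activate it. Of 6 tested genes of this group, none was called. The cyclin Y gene CCNY had 5.41 and 5.29 in Baz2B-KO and 5.26 and 5.21 in the Hap1 control (log2 fold change 0.12, 95% interval -0.14 to 0.38). Its homologue CCNYL1 had 5.22 and 5.21 in Baz2B-KO and 5.22 and 4.78 in the Hap1 control (log2 fold change 0.21, 95% interval -0.15 to 0.58). For both cyclin genes the interval includes 0. Both Baz2B-KO arrays of CCNY lay above both controls, as for 21.9% of all tested probe sets, and the groups of CCNYL1 overlapped. Among the kinases, the log2 fold change was 0.02 for CDK16 (95% interval -0.26 to 0.31), -0.08 for CDK17 (95% interval -0.44 to 0.27) and 0.03 for CDK18 (95% interval -0.26 to 0.32). These 3 kinases thus had intervals that exclude a fall of the size seen for CDK14. CDK15, which is closest to CDK14 in sequence, was dim on every array, at 2.77 and 3.06 in Baz2B-KO and 2.78 and 2.89 in the Hap1 control, and was not tested.

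CDK14 lies next to a Frizzled gene, FZD1, on chromosome 7. Of the 10 nearest protein-coding genes, 5 on either side in RefSeq order, 5 were tested and none was called. FZD1 had 5.24 and 5.27 in Baz2B-KO and 5.31 and 5.35 in the Hap1 control, a log2 fold change of -0.08 (95% interval -0.33 to 0.17). The Baz2B-KO arrays of FZD1 were below both controls, by far less than those of CDK14. The 5 tested neighbours had log2 fold changes between -0.29 and -0.04, with a lowest adjusted p of 0.452 from limma. Both Baz2B-KO arrays were also below both controls for CLDN12 and MTERF1, and the groups overlapped for GTPBP10 and AKAP9. Over all tested probe sets, 15.9% lay below. CLDN12 had the log2 fold change of -0.29 (95% interval -0.55 to -0.03). The other neighbours have no probe set named here or lay under the intensity limit.

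**Figure D2:**
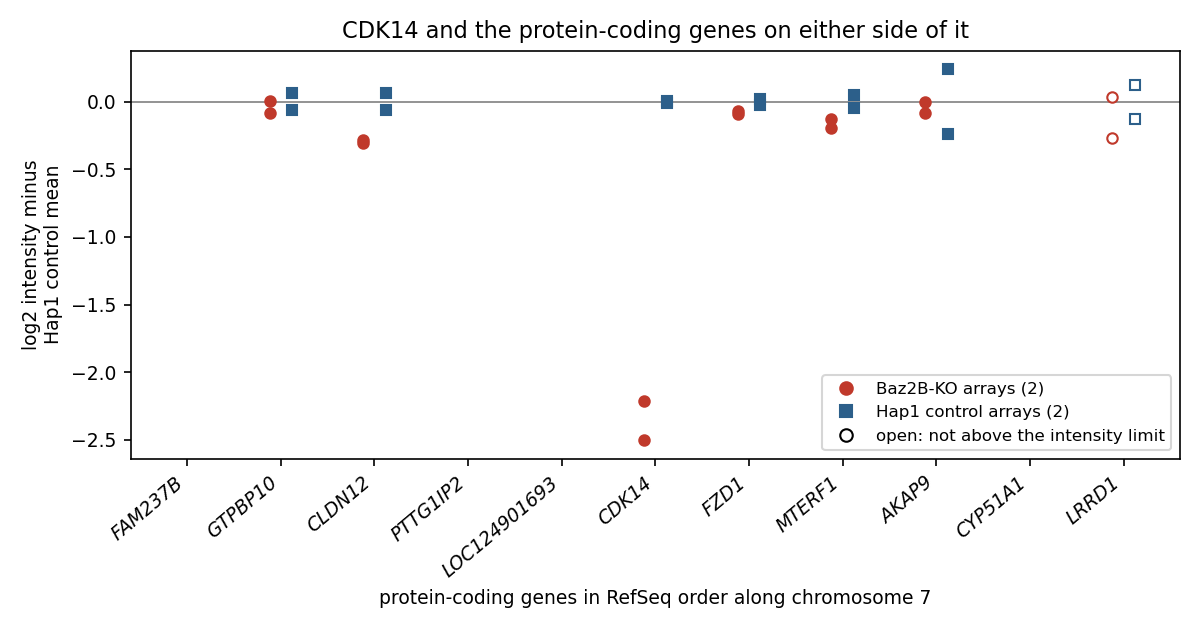
Log2 intensity minus the Hap1 control mean for CDK14 and the 5 protein-coding genes on either side of it, in RefSeq order along chromosome 7. Red circles are the 2 Baz2B-KO arrays, blue squares the 2 Hap1 control arrays, open symbols a gene under the intensity limit, and a gene without symbols has no probe set named here. CDK14 alone lies more than 2 units below 0, and the tested neighbours lie between -0.29 and -0.04 on average.

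The stretches before the RefSeq starts of CDK14 and of its neighbour FZD1 are shown because these adjacent genes differed in their change. Each holds 250 bases of GRCh38.p14, plus strand, 5′ to 3′, and capitals mark CpG dinucleotides.
CDK14, chr7:90709148-90709397: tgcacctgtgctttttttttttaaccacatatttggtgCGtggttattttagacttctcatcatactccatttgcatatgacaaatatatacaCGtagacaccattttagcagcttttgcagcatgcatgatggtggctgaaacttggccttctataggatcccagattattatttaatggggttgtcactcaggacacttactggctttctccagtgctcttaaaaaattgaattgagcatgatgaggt
FZD1, chr7:91264183-91264432: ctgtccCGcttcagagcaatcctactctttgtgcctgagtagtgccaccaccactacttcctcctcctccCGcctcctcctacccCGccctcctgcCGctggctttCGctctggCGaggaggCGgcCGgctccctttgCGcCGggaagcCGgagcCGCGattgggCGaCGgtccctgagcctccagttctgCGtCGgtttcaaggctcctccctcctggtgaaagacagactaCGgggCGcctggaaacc
The CDK14 window has 2 CpG and 38.4% G and C, and the FZD1 window has 19 CpG and 65.2%. Windows were held for 42 of the 60 listed genes, and that of CDK14 had the lowest share of G and C among them. The next lowest was 45.2%, and the median of the 42 was 69.8%. Over 15841 protein-coding genes the median was 62.4%, and 5.8% of windows had no more G and C than that of CDK14. A TCF/LEF motif (CTTTG followed by 2 letters that are each A or T, on either strand) occurs in 1 of the 42 windows and in 9.6% of all windows, and in neither printed sequence. Neither the base composition nor the motif was tested against the fold changes, and the start that CDK14 uses in Hap1 was not examined here.

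Receptors came next, and FZD10 was the only one of 12 that was called. FZD10, which binds WNT ligands at the cell surface, had 5.34 and 5.42 in Baz2B-KO and 4.33 and 4.49 in the Hap1 control. Both Baz2B-KO arrays were well above both controls, and the arrays of each line lay close together. FZD10 was 1.96-fold higher (log2 fold change 0.97, standard error 0.116, 95% interval 0.70 to 1.24, adjusted p = 0.016 from limma). The call was lost when any 1 array was left out (adjusted p from limma of 0.193 without Hap1 control replicate 1, 0.140 without Hap1 control replicate 2, 0.0730 without Baz2B-KO replicate 1 and 0.116 without Baz2B-KO replicate 2), with a log2 fold change between 0.89 and 1.05. It was also lost when all 27722 probe sets above the limit were tested, named or not (adjusted p = 0.166 from limma). Of the 10 nearest protein-coding genes to FZD10 on chromosome 12, 2 were tested and neither was called. TMEM132C was above both controls, as were 21.9% of all tested probe sets, with a log2 fold change of 0.33 (95% interval -0.04 to 0.71). STX2 overlapped between the lines, with a log2 fold change of 0.01.

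FZD6, a Frizzled known in the mouse for its part in planar cell polarity, had 8.03 and 7.88 in Baz2B-KO and 7.62 and 7.57 in the Hap1 control. Its groups did not overlap, with a log2 fold change of 0.36 (95% interval 0.09 to 0.63) and an adjusted p of 0.348 from limma. FZD5 was also above both controls, by a log2 fold change of 0.12, and FZD1 below both. The other 6 Frizzled genes overlapped between the lines, with log2 fold changes from -0.14 for FZD2 to 0.08 for FZD9. The interval of FZD10 lay above the intervals of the other 9 Frizzled genes, of which that of FZD6 reached highest. The difference between FZD10 and the other members was not tested. The Frizzled genes had a median log2 fold change of -0.04.

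The co-receptor gene LRP6, whose protein is the substrate of CDK14, had 9.17 and 9.18 in Baz2B-KO and 9.19 and 9.004 in the Hap1 control. The groups overlapped, and the log2 fold change was 0.08 (95% interval -0.20 to 0.35). Its partner LRP5 had 6.79 and 6.78 in Baz2B-KO and 6.69 and 6.81 in the Hap1 control, with a log2 fold change of 0.04 (95% interval -0.22 to 0.29). With 1 array left out, the log2 fold change of LRP6 lay between -0.014 and 0.17.

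**Figure D3:**
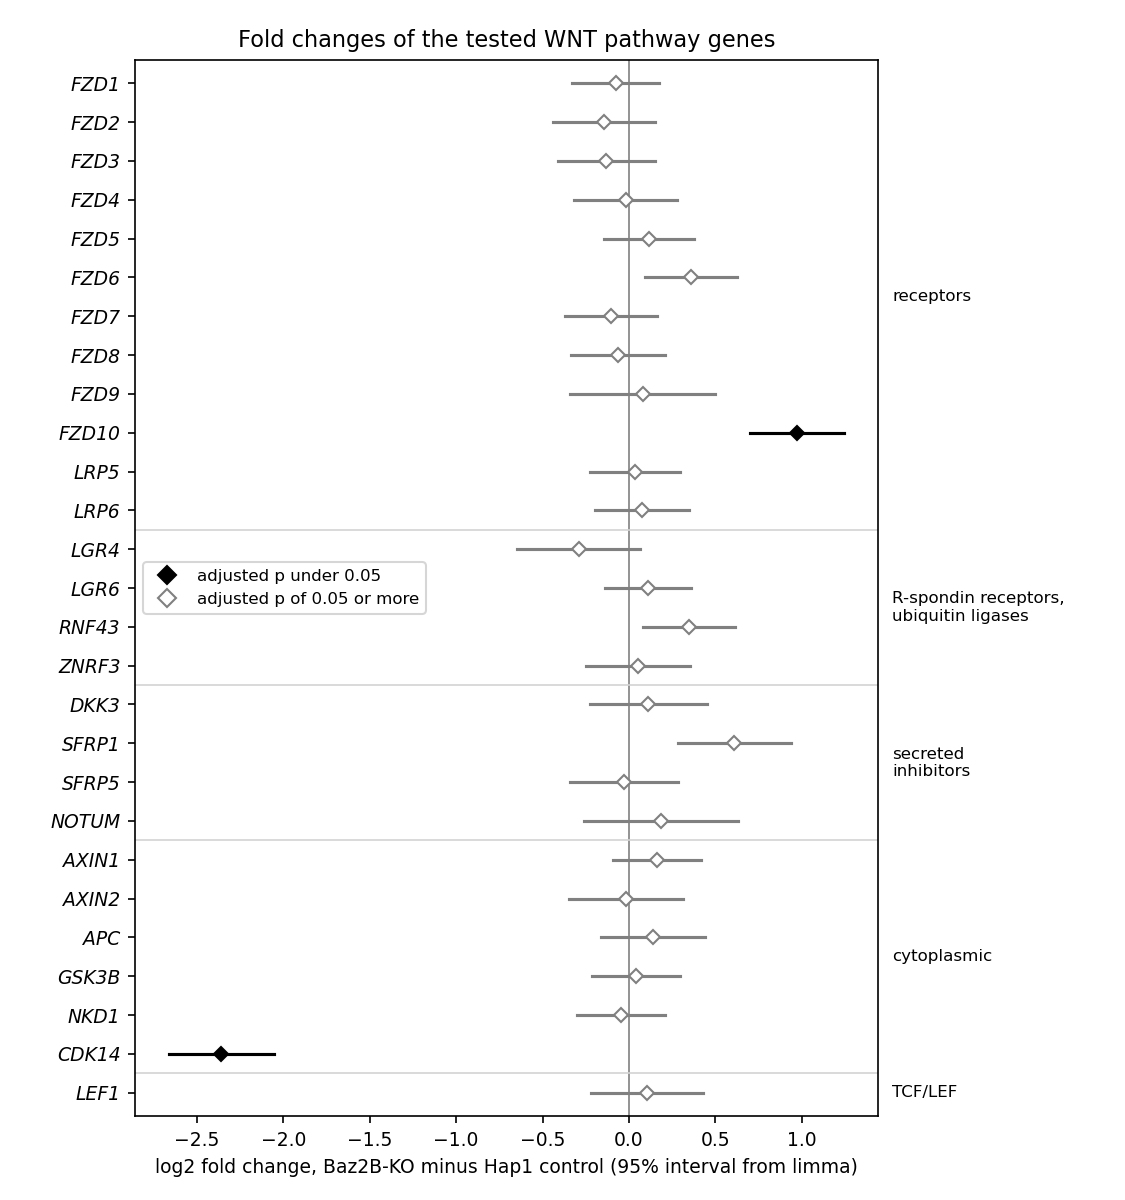
Log2 fold changes of the 27 tested WNT pathway genes, Baz2B-KO minus Hap1 control, with 95% intervals from limma's moderated standard errors. Filled diamonds passed the adjusted p of 0.05 and open ones did not. CDK14 at -2.36 and FZD10 at 0.97 are the filled ones, and SFRP1, FZD6 and RNF43 have intervals above 0 but missed the adjusted threshold.

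The ubiquitin ligases RNF43 and ZNRF3 remove Frizzled receptors from the surface, and R-spondins, bound to LGR receptors, oppose them. RNF43, itself a target of the pathway, had 4.66 and 4.495 in Baz2B-KO and 4.24 and 4.21 in the Hap1 control. Both Baz2B-KO arrays lay above both controls, with a log2 fold change of 0.35 (95% interval 0.08 to 0.62) and an adjusted p of 0.370 from limma. ZNRF3 overlapped between the lines, with a log2 fold change of 0.05. LGR4, the receptor of this family that is most widely expressed in tissues, had 8.66 and 8.37 in Baz2B-KO and 8.96 and 8.65 in the Hap1 control. The groups of LGR4 barely overlapped, and its log2 fold change of -0.29 had a 95% interval from -0.65 to 0.07. LGR6 was above both controls by only 0.11 on the log2 scale, and LGR5, a stem cell marker, was below the intensity limit on every array.

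Of the 10 listed secreted inhibitors, 4 were tested and none was called. SFRP1, which binds WNT proteins outside the cell, had 6.18 and 5.88 in Baz2B-KO and 5.51 and 5.33 in the Hap1 control. Its arrays did not overlap, and it was the uncalled WNT gene with the largest log2 fold change, 0.61 (standard error 0.140, 95% interval 0.28 to 0.94, adjusted p = 0.171 from limma). NOTUM, an enzyme that strips the lipid from WNT proteins, had a log2 fold change of 0.19, with controls as far apart as 4.55 and 5.06. DKK3 and SFRP5 had log2 fold changes of 0.11 and -0.03 with overlapping groups. DKK1, DKK2, DKK4, SFRP2, SFRP4 and WIF1 were below the intensity limit and were not tested, with values between 1.82 and 3.07 on all arrays.

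Of 6 tested cytoplasmic signalling genes, CDK14 was called lower, and the 5 genes of the destruction complex and its feedback were not called. GSK3B, the kinase that marks β-catenin, had 8.53 and 8.46 in Baz2B-KO and 8.48 and 8.43 in the Hap1 control, a log2 fold change of 0.04 (95% interval -0.21 to 0.29). APC, the scaffold of the complex, had 6.39 and 6.46 in Baz2B-KO and 6.42 and 6.15 in the Hap1 control, a log2 fold change of 0.14 (95% interval -0.16 to 0.44, and 0.0066 to 0.27 with 1 array left out). The arrays of the lines overlapped for both. AXIN1, the other scaffold, was above both controls by 0.16 on the log2 scale (95% interval -0.09 to 0.42).

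AXIN2, a target whose level is widely read as a measure of β-catenin activity, had 5.28 and 5.001 in Baz2B-KO and 5.05 and 5.27 in the Hap1 control. The 2 arrays of each line spanned nearly the same range, and the log2 fold change was -0.02 (95% interval -0.35 to 0.31). LEF1, both a factor and a target of the pathway, had 4.42 and 4.48 in Baz2B-KO and 4.18 and 4.52 in the Hap1 control, with a log2 fold change of 0.10 (95% interval -0.22 to 0.43). NKD1, a feedback inhibitor that binds Dishevelled, had a log2 fold change of -0.05 (95% interval -0.30 to 0.21). The smallest log2 fold change called among all tested probe sets was 0.70 in size. With 1 array left out, the log2 fold change lay between -0.16 and 0.12 for AXIN2 and between -0.064 and 0.27 for LEF1, so neither has a settled direction. CTNNB1, which encodes β-catenin, the Dishevelled genes DVL1, DVL2 and DVL3, and the factors TCF7, TCF7L1 and TCF7L2 have no probe set named in the tables used here.

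Of the 18 WNT ligand genes, 3 have a probe set named here. WNT2 was under the intensity limit, with 2.09 and 2.32 in Baz2B-KO and 2.02 and 1.81 in the Hap1 control. WNT3A, which signals through β-catenin, had 4.46 and 4.24 in Baz2B-KO and 3.95 and 3.95 in the Hap1 control, a log2 fold change of 0.40 (adjusted p = 0.324 from limma). WNT10A had 3.82 and 3.95 in Baz2B-KO and 3.48 and 3.64 in the Hap1 control, a log2 fold change of 0.32 (adjusted p = 0.435 from limma). The Baz2B-KO arrays of these ligands were above the controls, beside 22% of all 16098 probe sets named by the platform annotation. WNT2 was too dim on every array for its separation to be read as a result. WNT3A and WNT10A are named only by the held rows of the study's supplementary result table, which are those of lowest p, so they were left out of the counts and their separation is no result. PORCN, the enzyme that adds the lipid to WNT proteins, has no probe set named here.

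A wider set of 109 pathway genes outside the list held 64 tested genes, none of which was called, against 0.668% of all tested probe sets in either direction. Of the 64, 8 had an unadjusted p under 0.05, and 9.85% of all tested probe sets did. Of the 64, 3 met the intensity limit through 1 line only, as did 147 of the 11235 tested probe sets. The median log2 fold change was 0.08. DAAM1, a formin that couples Dishevelled to the actin cytoskeleton, had 5.39 and 5.16 in Baz2B-KO and 5.93 and 5.90 in the Hap1 control. Its arrays did not overlap (log2 fold change -0.64, 95% interval -0.93 to -0.35, adjusted p = 0.101 from limma). RSPO3, an R-spondin, had 3.74 and 3.76 in Baz2B-KO and 3.27 and 3.11 in the Hap1 control (log2 fold change 0.56), and was not called. It met the intensity limit only through the Baz2B-KO arrays, so it was kept for being high there and its separation is no result. SOSTDC1, a secreted inhibitor of the WNT and BMP pathways, was under the limit on all arrays, at 2.69 and 2.80 in Baz2B-KO and 3.35 and 3.30 in the Hap1 control, and was not tested.

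None of 9 tested extracellular and membrane regulators in that wider set, such as the SOST, KREMEN and APCDD1 families, was called. APCDD1 and APCDD1L met the intensity limit only through the Baz2B-KO arrays, and SOSTDC1, with 2.69 and 2.80 in Baz2B-KO and 3.35 and 3.30 in the Hap1 control, did not meet it. Counted without that limit, 8 of the 11 regulators with a named probe set had both Baz2B-KO arrays above both controls and 1 had both below, beside 22% above and 15% below among all 16098 named probe sets. Over the whole wider set, 30 of the 77 genes with a named probe set were above and 9 below. Some of the 11 regulators were dim. Of the tested probe sets with a mean intensity under 4, 27.8% lay above and 13.1% below. This class was described apart from the others with its values known, and its count was not tested. Of 18 tested target genes of the pathway in the wider set, none was called, with log2 fold changes between -0.25 and 0.34. These were above 0 for 12 targets and below 0 for 6, with a median of 0.06. Among the 6 were the proliferation genes MYC, at -0.14 (95% interval -0.40 to 0.11), and CCND1, at -0.25 (95% interval -0.51 to 0.01). EPHB3, among the 12, had 0.32 (95% interval 0.01 to 0.62) and was the 1 target with an unadjusted p under 0.05 by limma. These 3 genes were named after their values were seen.

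**Figure D4:**
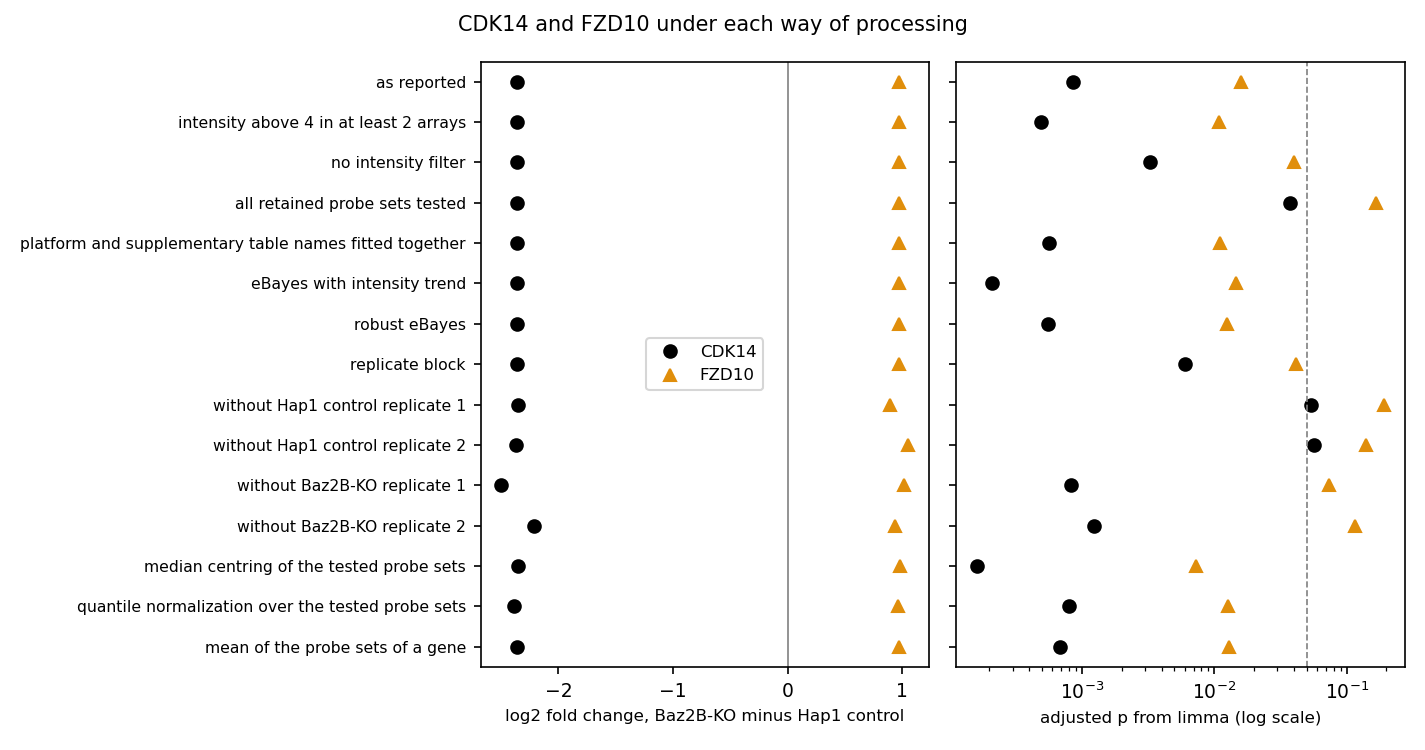
Log2 fold change (left, Baz2B-KO minus Hap1 control) and adjusted p from limma (right, log scale, dashed line at 0.05) of CDK14 (circles) and FZD10 (triangles) under each way of processing. Filters, names, variance priors and the replicate block cannot change the fold change. Both fold changes kept their direction in all of them, and the p of FZD10 crossed the line in 5 and that of CDK14 in 2.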

How the data were processed

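Arrays were read by the authors with oligo and normalised with RMA, and they deposited 1 log2 intensity per probe set and array for 53617 probe sets. Versions are not given in the sources used here. RMA can shrink differences near the background, so the changes of dim probe sets may be understated, which was not tested here. Tested probe sets with a mean intensity under 4 had a median log2 fold change of 0.062, against 0.017 over all tested probe sets. Arrays have no read depth, and their number limits the precision. With 2 arrays a line, an exact permutation test could not go below a two-sided p of 0.333.

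Following the methods, probe sets were kept where 2 or more arrays exceeded an intensity of 3.5 (27722), and those named by the platform annotation (11235) were tested with limma 3.58.1 in R 4.3.3, Baz2B-KO minus Hap1 control, with no covariate. Where a gene had more than 1 probe set, the brightest was used. A gene named only by the study's supplementary result table, of which 1999 rows were held, was tested as 1 added probe set with the same prior. The columns of fold changes and p-values in that table were not used. Promoter windows and gene order came from RefSeq, GRCh38.p14. The fit was tested on simulated data. Alternatives were other filters, names, variance priors and scalings, a replicate block, and each array left out. Figures were drawn with matplotlib 3.10.9.

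The members and lists were chosen with earlier results of these data known. Values per array are given for genes that passed the test, for genes whose groups do not overlap with a log2 fold change of at least 0.3 in size, and for core pathway genes. Genes of other lists were named when they passed or had a log2 fold change of at least 0.5 in size, and others to complete their class. MYC, CCND1, EPHB3, APCDD1 and APCDD1L fall outside this rule, as do the named neighbours of CDK14 and FZD10. The values per array of some further genes, such as LGR4, LRP5 and FZD1, also fall outside it.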

Additional observations from a re-analysis of the deposited data

How the results depend on the processing

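The number of probe sets past the test depended on the processing, and CDK14 and FZD10 kept their direction in all 14 alternatives. That direction was no check, since filters, names, variance priors and the replicate block cannot change a fold change. The groups of both genes also lie too far apart for the loss of 1 array to turn it. Against 75 probe sets, 41 passed with no intensity filter, 26 with all retained probe sets tested, 139 when probe sets named by the supplementary result table, which are those of low p, were added, and 38 with a replicate block. Leaving out 1 array gave 0 to 42. Without Hap1 control replicate 1 none passed (935 at an unadjusted p under 0.05) and without Hap1 control replicate 2 also none (1419), by limma. Of the WNT genes, 1 passed with all retained probe sets tested, where FZD10 kept a log2 fold change of 0.97 with an adjusted p of 0.166 from limma, and 0 to 1 passed without 1 array. With 1 array left out the log2 fold change was -2.50 to -2.22 for CDK14 and 0.89 to 1.05 for FZD10, and the median of the WNT genes was -0.021 to 0.091. The cause was not tested, except that a fit of 3 arrays has fewer samples. The deviations of arrays with the same replicate number had a correlation of 0.158 over the tested probe sets (2 pairs). No source used here ties the numbers to a shared culture or day, so the arrays were not treated as paired. With the replicate block CDK14 (adjusted p = 0.0060 from limma) and FZD10 (adjusted p = 0.041 from limma) both passed. SFRP1, FZD6 and RNF43 passed in none of the alternatives. Raw intensities were not used, so the background correction was not varied.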
